A study of Rattus norvegicus with 2 samples.

Results

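Chromosome 20 of the rat, which carries the major histocompatibility complex, was represented by 5202 probes of the array, 2.25% of the 231247 probes placed on the 20 numbered chromosomes and X. A probe belonged to it when both scanner files held it as a non-control spot without an outlier flag and placed it on chromosome 20 of the rn4 build. Randomly placed sequence of the chromosome was left out and spots of a probe were averaged. All 5202 probes of the chromosome remained after 3 flagged spots out of 5264 were removed, and no spot was saturated. The modified base 8-oxoguanine (8-oxoG) was measured in the untreated normal kidney of male Wistar rats (spelled Wister in the labels) aged 5 weeks. The samples form 1 group of 2 animals with 1 two-colour array each, called rat 1 and rat 2 here, and there is no control group. DNA cut with the restriction enzyme BmgT120I was precipitated with the monoclonal 8-oxoG antibody N45.1 and labelled with Cy5, and input DNA of the same digestion that had not been precipitated was labelled with Cy3. The dyes were not swapped, so that a preference of one dye for some probes cannot be told apart from the difference between precipitate and input. The DNA came from homogenised kidney tissue, and a mixture of cell types stands behind every value.

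8-oxoG is the oxidised form of guanine that reactive oxygen species leave most often in DNA. It can pair with adenine during replication, and base excision repair started by the glycosylase OGG1 removes it. The major histocompatibility complex, named RT1 in the rat, holds the class I and class II antigen-presenting molecules together with genes of antigen processing and complement, in one dense cluster of genes. Chromosome 20 is among the small chromosomes of the rat. In the gene table of a later assembly (GRCr8), 639 protein-coding genes are named on chromosome 20. All 44 protein-coding genes whose symbol begins with RT1 lie on it, between the 41st and the 229th gene from its start. The order there opens with olfactory receptor genes, which encode odorant receptors. It runs through RT1 class I genes to Tnf, an inflammatory cytokine, C4a, a complement component, and Notch4, a receptor of the endothelium. The class II genes follow together with Tap1 and Tap2, the peptide transporter of antigen processing. This table has no rn4 coordinates, so no probe is assigned to a gene here, and the RT1 cluster is not placed on the profile. The array reads DNA and holds no value that could check the label of the chromosome as carrier of this complex.

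The probes ran from position 3957 to position 55258639 of rn4, a span of 55.3 Mb. The distance between the starts of neighbouring probes had a mean of 10624 bases and a median of 7009 bases, and its 5th and 95th percentiles were 2755 and 26902 bases. Probes were 60 bases long at the median and at least 45 bases. The first 6 Mb of the chromosome held 1043 probes, or 174 per Mb, against 83.2 per Mb over the rest of it. The widest distances without a probe were 388.4 kb (chr20:49281994-49670387) and 372.3 kb (chr20:2228435-2600728). Of all probes of the chromosome, 4012 (77.1%) were well above background in both channels in both rats, against 80.3% of the probes of chromosome 10, 78.8% of chromosome 12 and 79.0% of chromosome 19.

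The 8-oxoG level of a probe is log2 of the processed precipitate intensity over the processed input intensity, minus the median of that value over all kept probes of the array. A level of 0 thus marks the median probe of the array, whatever its content of 8-oxoG. The mean level of chromosome 20 was -0.06 in rat 1 and -0.06 in rat 2, with a mean of -0.06 ± 0.00156 (SD, n = 2 rats). Among the 21 chromosomes this spread between the rats was the smallest, and it depended on the centring. In the uncentred table of the authors the means were -0.05 in rat 1 and 0.0038 in rat 2, and the medians over probes of the centred levels were -0.04 and 0.02. The mean level did not differ from 0 by limma's moderated test (adjusted p = 0.50 over 21 chromosomes), a test in which 0.0% of chromosomes were called above 0 and 14.3% below. Set against the probes of all other chromosomes, chromosome 20 was lower by 0.05 in rat 1 and higher by 0.04 in rat 2. The mean difference was -0.0049 ± 0.0274 (SE pooled over chromosomes, n = 2, limma adjusted p = 0.91), smaller than the spread between the rats. In this test 9.52% of chromosomes were called above and 14.3% below the rest.

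Chromosome 20 stood 14th of 21 in mean level, from the highest. Chromosomes 10, 12 and 19, which stand at the low end of the genome, had mean levels of -0.20, -0.20 and -0.14. Chromosome 20 exceeded chromosome 10 by 0.13 in rat 1 and 0.14 in rat 2. It exceeded chromosome 12 by 0.17 and 0.11, and chromosome 19 by 0.07 and 0.08. The direction was the same in both rats for all 3, with standard errors of 0.0146, 0.0223 and 0.0148. None of the 3 differences passed limma's test over the 210 pairs of chromosomes (adjusted p = 0.13 for each), where 0.0% of pairs were called in either direction. Without adjustment, 69 pairs had a p under 0.05, among them 3 of the 20 pairs with chromosome 20, which were these. Of the 20 pairs, 6 had the same direction in both rats. In the plot of chromosome means by rat, the points of the rats coincide on chromosome 20, while most chromosomes have a higher mean in rat 1.

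**Figure D1:**
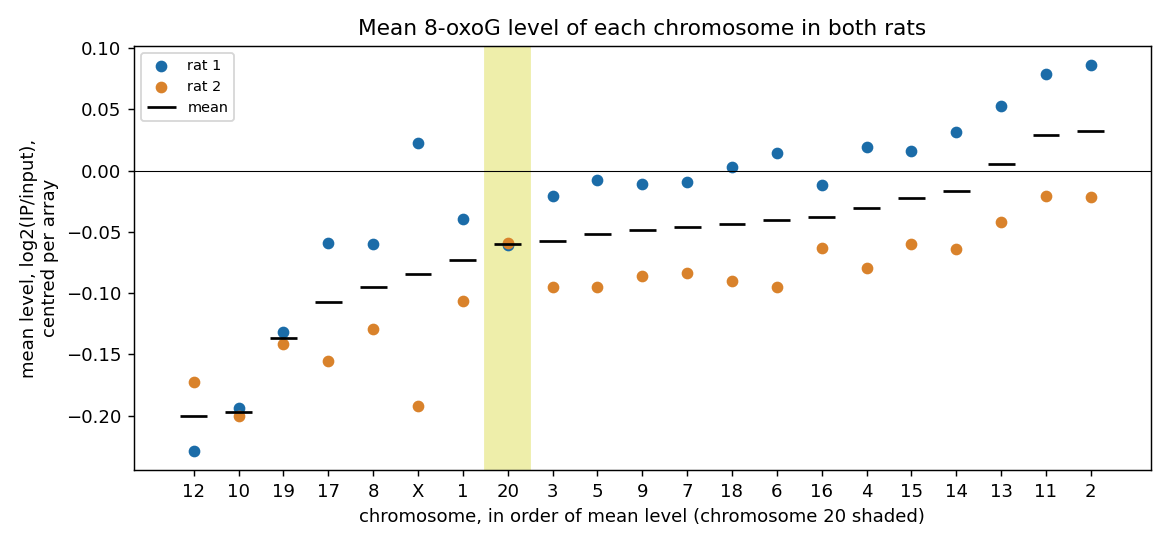
Mean 8-oxoG level (log2 of precipitate over input, centred per array) of the 20 numbered chromosomes and X, ordered by the mean of both rats; points are the rats and the short line is their mean. On chromosome 20, shaded, both rats lie at -0.06, above chromosomes 12, 10 and 19 and below the 13 chromosomes to its right.

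The mean near 0 covers a chromosome made of high and low stretches. Its 56 fragments of 1 Mb held 28 to 216 probes, with a median of 88.0. By limma's test against 0, 9 fragments were above 0 with an adjusted p under 0.05 (16.1%, while 20.9% of the 2731 fragments of the genome did) and 13 were below it (23.2%, while 20.4% of the genome did). Both shares are near those of the genome. Levels of the called fragments ran from 0.32 to 0.48 above 0 and from -0.47 to -0.25 below it, and all 22 had the same sign in both rats. Every fragment had the same pooled SE of 0.105, so a call asked only for a mean far from 0. That left little room for opposite signs, and the shared sign says little about how well the rats agree. Disregarding the test, 16 fragments were above 0 in both rats (the genome had 32.8%), 31 were below 0 in both (48.9%), and 9 had opposite signs (18.3%). Background correction by normexp with an offset of 50 left 0 of the calls above 0 and 2 of the calls below it (at an unadjusted p under 0.05, 0 and 16). Under it, 6 of the 9 high and 12 of the 13 low fragments kept their sign in both rats. In the mean of both rats, 8 and 13 kept it. Medians over probes in place of means called 9 above, 8 of them among the first 9, and 2 below. With the trend on input brightness removed, 7 and 6 were called.

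The rats gave much the same profile at this scale. Over the 56 fragments of chromosome 20, their levels correlated with r = 0.86 (Spearman's rho 0.82), the second highest r of 21 chromosomes. Over chromosomes 10, 12 and 19 the r was 0.61, 0.64 and 0.78, and over all fragments of the genome 0.80. These correlations are descriptions, since neighbouring fragments are not independent and both arrays share the probes and their composition. The spread of the levels over fragments was ordinary, with an SD of 0.25 on chromosome 20, which ranked 16th of 21, against 0.17 on chromosome 10, 0.15 on chromosome 12 and 0.25 on chromosome 19. Single probes agreed less. Over the 5202 probes r was 0.32, and 1568 probes (30.1%) were above 0 in both rats, 1644 (31.6%) were below 0 in both and 1990 had opposite signs, while 31.5% and 31.6% of the probes of the genome were above and below 0 in both. The 31 probes spotted more than once, at most 3 times, had an SD between spots of 0.32 in rat 1 and 0.34 in rat 2, against an SD over all probes of the chromosome of 0.94 and 1.21.

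**Figure D2:**
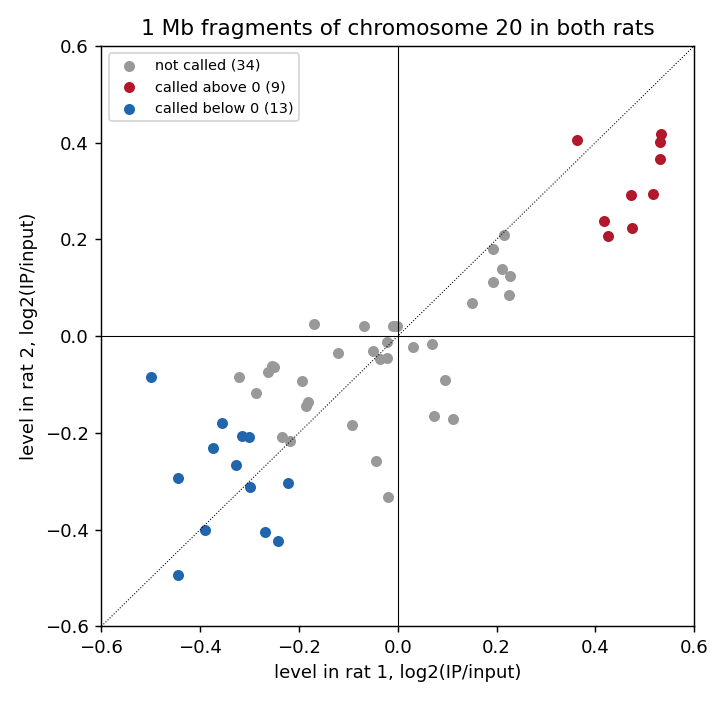
Level of the 56 fragments of 1 Mb in rat 1 (horizontal) and rat 2 (vertical), both as log2 of precipitate over input; the colour gives limma's call and the dotted line marks equal levels. The 9 fragments called above 0 lie apart from the others at the upper right, and most of them lie under the dotted line, that is, higher in rat 1.

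Smoothing over 500 kb in both directions divided chromosome 20 into stretches on one side of 0. Of these, 7 rich and 6 depleted regions were at least 1 Mb long and are all described here. Rich stretches of any length covered 34.4% of the chromosome with 29.8% of its probes, and depleted stretches 63.3% with 70.2%. The same shares over the genome were not computed. More fragments below 0 than above it is common to the genome, where 48.9% of 1 Mb fragments were below 0 in both rats and 32.8% above. The median level of 1 Mb fragments was -0.07 over the genome and -0.06 on chromosome 20. Rich regions had a median length of 1.59 Mb and depleted regions of 5.04 Mb. Since the regions were drawn from the same profile, their levels are descriptions without a test. Under normexp correction, 3 rich regions of this length were found in place of 7, and 5 of the 7 described here had mean levels between -0.03 and -0.0051, that is, just below 0.

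The chromosome opened with a short rich region of 1.18 Mb (chr20:3957-1186940) with 182 probes, and its level was 0.24 in rat 1 and 0.06 in rat 2. The longest region of the chromosome followed, a depleted one of 13.2 Mb (chr20:1275185-14487871) with 1875 probes, at -0.20 and -0.13. Its lowest point, at 11.3 Mb, was -0.38 in rat 1 and -0.30 in rat 2. The smoothed level of rat 2 touched or passed 0 in places within the first 6 Mb.

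The first 6 Mb, where probes stood densest with a median distance of 3964 bases, were chosen after the profile had been seen. They stayed close to 0, at -0.07 in rat 1 and -0.02 in rat 2. The 6 fragments had levels, in order along the chromosome, of 0.23 and 0.12, -0.04 and -0.05, -0.12 and -0.04, -0.29 and -0.12, -0.05 and -0.03, and -0.17 and 0.03 in rats 1 and 2. The first fragment was above 0 in both rats, 4 were below it in both and 1 had opposite signs. None of the 6 passed limma's test, also at an unadjusted p under 0.05, and their adjusted p ran from 0.10 to 0.77. The 8 fragments from 6 to 14 Mb were all below 0 in both rats and 4 of them were called (in the genome 20.4% were called below 0). The 992 probes there had a mean of -0.26 in rat 1 and -0.21 in rat 2. The fragment at 6 to 7 Mb, with 139 probes, was the lowest of these at -0.27 and -0.40 (mean -0.34 ± 0.105 SE, limma adjusted p = 0.0064).

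A rich region of 1.59 Mb came next (chr20:15563312-17153995). It held only 65 probes, and its level was 0.30 in rat 1 but 0.06 in rat 2, so that its height differed between the rats more than that of any other rich region. The second depleted region spanned 6.31 Mb (chr20:17182891-23490342, 472 probes) at -0.28 in rat 1 and -0.27 in rat 2, with almost no spread between the rats (SD 0.00738). Near its end lay the lowest fragment of the chromosome, at 22 to 23 Mb, with -0.45 and -0.49 over 60 probes (mean -0.47 ± 0.105 SE, adjusted p = 0.00014). Among the 2702 fragments of the genome with at least 20 probes, 12 were lower. Within it, the 200 kb fragment at 22.4 to 22.6 Mb reached -0.72 and -0.88 over 8 probes (adjusted p = 0.022).

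The profile then turned over within a short distance. A rich region of 1.58 Mb (chr20:23529034-25107127, 122 probes) had levels of 0.37 and 0.26 and a peak at 24.6 Mb of 0.58 in rat 1 and 0.51 in rat 2. Its fragment at 24 to 25 Mb was the third highest of the chromosome, with 0.53 and 0.37 (mean 0.45 ± 0.105 SE, adjusted p = 0.00029). From the fragment at 22 to 23 Mb the level went up by 0.47 and then by 0.45, and at 25 Mb it went down by 0.62 into the next fragment. All 3 steps passed a test of the difference between neighbouring fragments (limma adjusted p = 0.00068, 0.0013 and 3.3e-06), added after the profile had been seen. Among the 55 steps of chromosome 20, 7 up and 5 down were called, in a genome where 8.52% of steps were called up and 8.97% down. Under normexp correction limma called 0 steps up and 0 down (unadjusted, 6 and 5), so that no step called here or further on kept its call, and before dye normalization 4 were called up and 4 down. The 200 kb fragment at 25.2 to 25.4 Mb was at -0.45 in rat 1 and -1.36 in rat 2, called below 0 (adjusted p = 0.032) although the rats were far apart. The depleted region behind it (chr20:26748528-31461424, 4.71 Mb, 476 probes) had levels of -0.24 and -0.15 and its low point at 29.5 Mb. The fragment at 29 to 30 Mb was -0.39 and -0.40, nearly equal in the rats (mean -0.40, adjusted p = 0.0013).

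**Figure D3:**
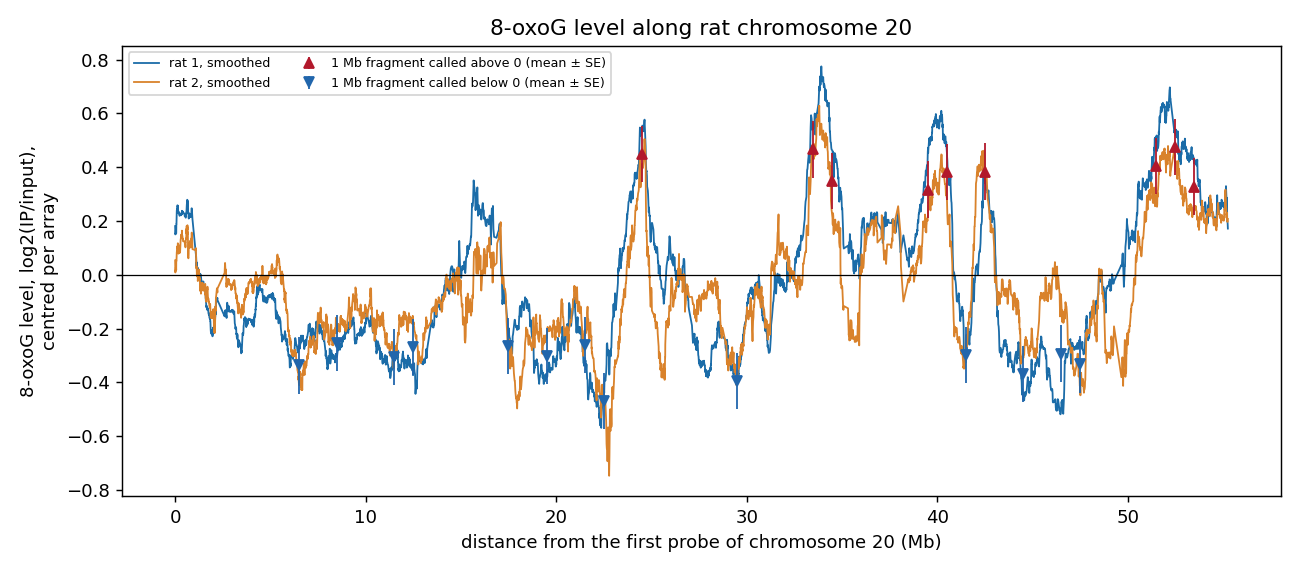
Level of 8-oxoG along chromosome 20 in both rats, smoothed over 500 kb in both directions (lines), against the distance from the first probe in Mb; triangles are the 1 Mb fragments called by limma, with the mean of both rats and its SE (0.105). Long low stretches fill most of the first 33 Mb, high and low ones alternate after that, and the end of the chromosome is high.

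The chromosome looked different on the 2 sides of 33 Mb, a boundary chosen after the profile had been seen. The 3497 probes before it had a mean of -0.15 in rat 1 and -0.12 in rat 2, and of their 33 fragments 1 was called above 0 and 9 below. The 1705 probes after it had a mean of 0.12 and 0.07, and of their 23 fragments 8 were called above 0 and 4 below. In the genome 20.9% of 1 Mb fragments were called above 0 and 20.4% below, and the difference between the 2 sides was not tested. Probe density was 106 per Mb before the boundary and 74.1 per Mb after it. At the boundary itself the level went up by 0.46 (adjusted p = 0.00093) into the fragment at 33 to 34 Mb, which was the second highest, at 0.53 in rat 1 and 0.40 in rat 2 over 43 probes (mean 0.47 ± 0.105 SE, adjusted p = 0.00016). The rich region around it (chr20:32599609-35063611, 2.46 Mb) reached 0.77 and 0.56 at 33.9 Mb, the highest smoothed level of the chromosome. Between 33.4 and 34.2 Mb, 4 neighbouring 200 kb fragments were each called above 0, with levels of 0.57 to 0.80 in rat 1 and 0.66 to 0.77 in rat 2. All 4 calls were lost under normexp correction, with only probes well above background and with the trend on input brightness removed.

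Between 35 and 44 Mb, rich and depleted fragments met most sharply. A rich region of 4.86 Mb (chr20:35958253-40818165, 352 probes) had levels of 0.28 and 0.16, with its peak at 40.2 Mb of 0.61 and 0.45. It ended in the fragment at 40 to 41 Mb, called above 0 with 0.47 and 0.29. The next fragment, at 41 to 42 Mb, was at -0.33 in rat 1 and -0.27 in rat 2 and was called below 0. The fragment after that, at 42 to 43 Mb, was at 0.36 and 0.40 (mean 0.38 ± 0.105 SE, adjusted p = 0.0018) and the fifth highest of the chromosome. It made up most of a rich region of 1.11 Mb (chr20:41958223-43068967, 55 probes) at 0.34 and 0.40, whose mean of 0.37 was the highest of the 7 rich regions. The step down at 41 Mb measured -0.80 in rat 1 and -0.56 in rat 2 (mean -0.68 ± 0.113 SE, adjusted p = 2.9e-07). The step up at 42 Mb measured 0.69 and 0.67 (mean 0.68, adjusted p = 2.8e-07). A further step down of 0.54 followed at 43 Mb (adjusted p = 8.6e-05). The low stretch between the first pair of steps was the shortest of the 6 depleted regions, 1.01 Mb with 52 probes (chr20:40842350-41851462). The 200 kb fragments within the 1 Mb fragment at 41 to 42 Mb were uneven. The one at 41.0 to 41.2 Mb had opposite signs, at 0.11 in rat 1 and -0.16 in rat 2. The ones at 41.2 to 41.4 Mb (-0.51 and -0.66) and at 41.4 to 41.6 Mb (-0.25 and -0.46) were low in both rats. The one at 41.6 to 41.8 Mb was above 0 in both (0.10 and 0.32). The one at 41.8 to 42.0 Mb was low in rat 1 (-0.90) and near 0 in rat 2 (-0.06). It held 10 probes, and 1 of them (chr20:41896282-41896341) had -4.83 in rat 1 and -0.83 in rat 2. That probe lay outside the depleted region but inside the called fragment at 41 to 42 Mb. How far the levels of rat 1 there rest on it was not computed.

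**Figure D4:**
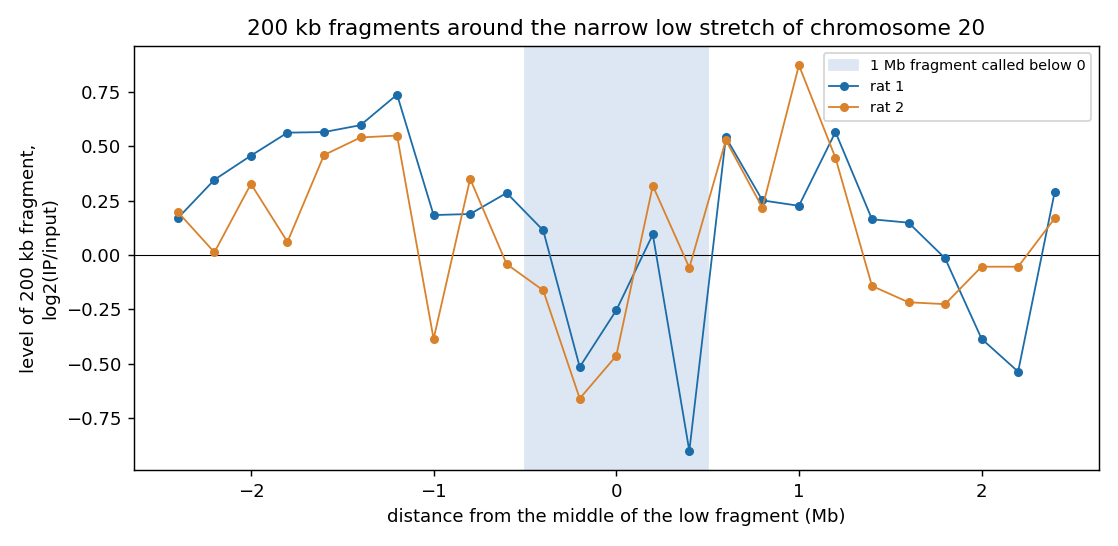
Level of 200 kb fragments in both rats over the 5 Mb around the narrow low stretch; the horizontal axis is the distance in Mb from the middle of the 1 Mb fragment called below 0, which is shaded. Inside the shaded fragment the lowest values are -0.90 in rat 1 and -0.66 in rat 2. The -0.90 averages 10 probes, 1 of them at -4.83 in rat 1. The rats are at 0.54 and 0.53 just after the shaded fragment, with scatter between rats of similar size in several fragments.

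Further on, the chromosome held another depleted region of 5.38 Mb (chr20:43103439-48482625, 497 probes) at -0.31 and -0.16, and a smaller one of 1.5 Mb (chr20:48653111-50154798, 71 probes) at -0.03 and -0.25, low mainly in rat 2. All 7 fragments from 43 to 50 Mb were below 0 in both rats and 3 were called (in the genome 20.4% were called below 0). Those at 44 to 45 Mb (-0.45 and -0.29, adjusted p = 0.0027) and 47 to 48 Mb (-0.24 and -0.42, adjusted p = 0.007) were among the 5 lowest of the chromosome. The third, at 46 to 47 Mb, was the fragment on which the rats differed most, at -0.50 in rat 1 and -0.09 in rat 2, so its level was low mainly in rat 1.

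The end of the chromosome was the longest rich region, 5.06 Mb (chr20:50201801-55258639) with 524 probes, at 0.38 in rat 1 and 0.25 in rat 2. All 6 fragments from 50 to 56 Mb were above 0 in both rats and 3 were called (in the genome 20.9% were called above 0). The fragment at 52 to 53 Mb was the highest of the chromosome, with 0.53 and 0.42 over 90 probes (mean 0.48 ± 0.105 SE, adjusted p = 0.00012), and 124 of 2702 fragments of the genome were higher. The fragment at 51 to 52 Mb had 0.52 and 0.29 (mean 0.40, adjusted p = 0.001). After 53 Mb the level was lower, at 0.42 and 0.24 at 53 to 54 Mb, 0.22 and 0.21 at 54 to 55 Mb (adjusted p = 0.086) and 0.15 and 0.07 in the last fragment, which held 28 probes. The probes of the last 3 fragments had a mean of 0.31 and 0.21, and those of the first 3 of 0.03 and 0.01.

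At 200 kb the data were thinner, with a median of 17.0 probes in the 275 fragments of chromosome 20. By limma, 9 of them were called above 0 (in the genome 5.58%) and 7 below (2.57%). Irrespective of the test, 79 were above 0 in both rats, 124 below 0 in both and 72 of opposite sign (in the genome 32.6%, 39.4% and 28.0%). Without adjustment, 34 fragments above 0 and 38 below it had a p under 0.05. The r between the rats was 0.57, against 0.58 over the genome. With only probes well above background, limma called 0 above and 0 below (unadjusted, 33 and 28), and with the trend on input brightness removed likewise 0 and 0 (24 and 30).

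Single probes departed much further from 0 than the fragments that held them. Levels over 1 in both rats were seen in 4.69% of probes (in the genome 5.84%) and levels under -1 in both in 4.38% (in the genome 4.67%). Of the high probes 68.9% lay in rich stretches, which hold 29.8% of the probes and were drawn from the same levels, and of the low probes 14.5%. The highest probe well above background in both channels, A_86_P06837084 (chr20:186181-186240), lay near the start of the chromosome. It had levels of 2.38 in rat 1 and 3.36 in rat 2, from precipitate intensities of 511 and 892 over input intensities of 97.1 and 83.2, and the 18 other probes within 50 kb had a mean of 0.39. The next was A_86_P06909987 (chr20:24863036-24863095) at 2.86 and 2.76, inside the high fragment at 24 to 25 Mb. A_86_P06935390 (chr20:34055422-34055481) followed at 2.55 and 2.92. A_86_P06906930 (chr20:23810351-23810410) had 1.62 and 3.16, and A_86_P06946532 (chr20:38864447-38864506) had 1.19 and 3.57, both far higher in rat 2.

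The lowest probe, A_86_P06857831 (chr20:7609825-7609882), had levels of -3.13 in rat 1 and -4.31 in rat 2, from precipitate intensities of 26.4 and 10.4 over input intensities of 229 and 198. The next, A_86_P06985981 (chr20:54606173-54606232), lay in the rich end region. Its levels were -2.88 and -4.20, while its 8 neighbours within 50 kb had a mean of 0.32, the lowest of them at -0.19. A_86_P06904777 (chr20:22853259-22853317), inside the lowest fragment, had -1.19 in rat 1 and -5.42 in rat 2. A_86_P06836950 (chr20:94382-94441) had -1.69 and -4.47, and A_86_P06970137 (chr20:47508971-47509030) had -2.60 and -3.45. All 5 were lower in rat 2 than in rat 1.

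Input brightness moved with the level along the whole chromosome. The 1552 probes of rich stretches had a median input intensity of 52.7 in rat 1 and 39.9 in rat 2, against 106 and 83.7 for the 3650 probes of depleted stretches. Their median precipitate intensities differed less, at 80.3 and 52.4 against 90.2 and 77.7. The share well above background was 72.5% in rich and 79.2% in depleted stretches. In the 9 fragments called above 0 the median input intensity in rat 1 ran from 27.5 to 67.4, and in the 13 called below 0 from 89.7 to 159. In rat 2 they ran from 18.7 to 50.2 and from 72.2 to 130. The ranges did not overlap, but input is the denominator of the level by which these fragments were chosen. The same ranges over the genome were not computed. The fragment at 7 to 8 Mb, which was not called, had an input of 59.1 in rat 1 and levels of -0.19 and -0.15. Over the 56 fragments the level correlated with log2 of the median input intensity at r = -0.86, a description of points that share the input channel with the level. Against the input intensity of the other rat, which is not part of the level, r was -0.85 for the level in rat 1 and -0.81 for that in rat 2. Against each rat's own input it was likewise -0.85 and -0.81. Both arrays hold the same probes, so the input of the other rat cannot tell the shared channel apart from the brightness of the probes. On chromosomes 10, 12 and 19 the r over fragments was -0.58, -0.18 and -0.77. It was negative on all other chromosomes, from -0.18 on chromosome 12 to -0.86 on chromosome 11, with -0.83 on chromosome 15 and -0.82 on chromosome 9. A strong relation was thus not particular to chromosome 20. With the trend of level on input brightness removed within each array, 7 of the 9 fragments above 0 and 6 of the 13 below 0 were still called, and all 22 kept their sign in both rats. The part of input brightness in the levels beyond that was not tested. Base composition of the probes was not analysed here.

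**Figure D5:**
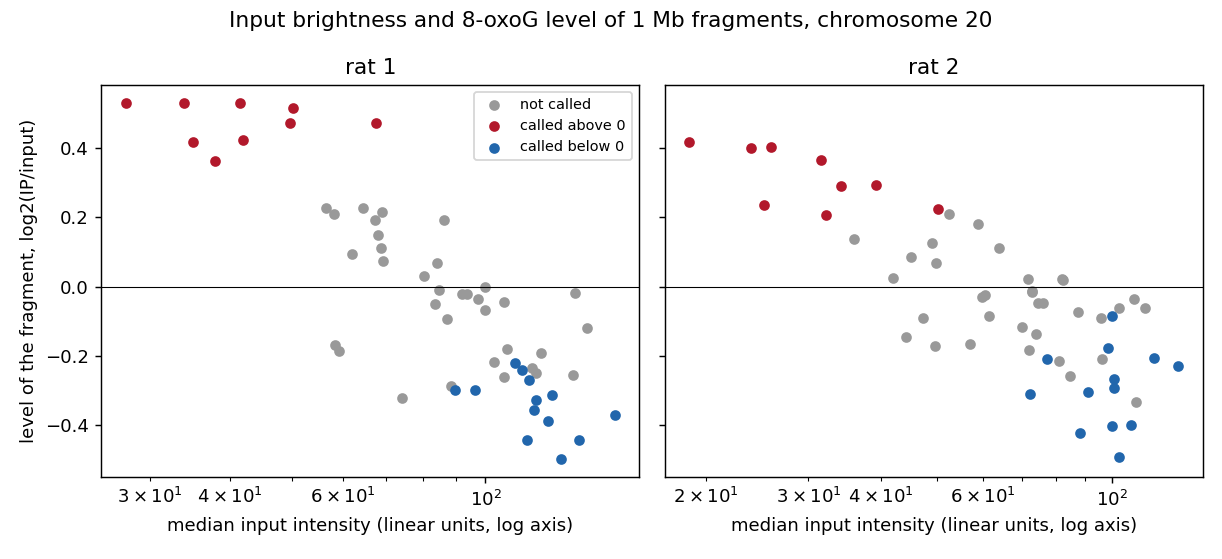
Level of the 56 fragments of 1 Mb against the median input intensity of their probes (logarithmic axis), for rat 1 on the left and rat 2 on the right, coloured by limma's call. The fragments called above 0 are dim in the input, at 27.5 to 67.4 in rat 1, and those called below 0 are bright, at 89.7 to 159.

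The level of a fragment also held a weak relation to the number of its probes (r = -0.22, rho = -0.28 over 56 fragments, a description). Resemblance between the rats grew with the size of the window. It was lowest for single probes (r = 0.32), rose to 0.57 at 200 kb and 0.77 at 500 kb, and reached 0.86 at 1 Mb and 0.88 at 2 Mb, where 28 fragments were left. The mean difference between rat 1 and rat 2 over the fragments of chromosome 20 was 0.02 with an SD of 0.15, and rat 1 was higher in 31 of 56. Over the fragments of the genome the mean difference was 0.10.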

How the data were processed

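DNA of 2 rat kidneys was measured on 1 two-colour Agilent Rat Genome CGH array per animal. The authors made the deposited intensity values with Agilent Feature Extraction 10.5.1.1, which subtracts background and normalizes the dyes, and deposited in addition a table of log2 values. Set against the scanner files, the table held log2 of the precipitate over the input intensity after processing (largest difference 6.2e-15), uncentred, with medians of 0.01 and 0.06. Coordinates are those of rn4 in the files.

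Levels were computed as stated in the results, without loess or quantile normalization. Control spots and flagged spots were dropped and saturated spots were not. The 4625 probes not placed on the 20 numbered chromosomes or X, among them those on randomly placed sequence, were left out. Features were tested against 0 with limma 3.58.1 in R 4.3.3 (intercept by lmFit, then eBayes, two-sided, Benjamini-Hochberg over all features of the genome). With 2 arrays each feature had 1 residual degree of freedom. The spread was pooled completely by limma over 1 Mb fragments, over steps, and over chromosome means and their differences from the rest. In these tests all features of a kind shared 1 SE. A call thus depended on the mean alone, whatever the feature's own spread between the rats. The p-values treat the rats as the replicates and take in no animals beyond these 2. The number of arrays limits the precision. Tested on simulated data, 99.5% of 200 among 2731 fragments of 1 Mb shifted by 0.5 were recovered with 10 false calls, and 35.0% of those shifted by 0.25 with 6 false calls. Of 200 among 13491 fragments of 200 kb shifted by 0.5, 7.0% were recovered. In the simulation all other fragments were at 0 and the spread was equal over fragments. In the data 20.9% of 1 Mb fragments were called above 0 and 20.4% below, which loosens the adjustment. The recovered shares therefore do not carry over to the tests reported here.

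The 5 highest and 5 lowest fragments (at least 20 probes, same sign in both rats), the 5 highest and 5 lowest probes (well above background in both channels in both rats, same sign) and every region of at least 1 Mb are named. Other fragments, intervals and steps were chosen after their values had been seen. The chromosome and these rules were chosen with earlier results of these data known. Alternatives covered the table of the authors, normexp on median signals with an offset of 50, intensities before dye normalization, spot filters, a trend on input brightness, medians, window, grid and fragment size, and each rat alone. Results on genes, the RT1 interval and base composition were planned and not run, since neither genome nor annotation of rn4 was used here. Python 3.11.15 (numpy 2.4.6, pandas 2.3.3, scipy 1.17.1, matplotlib 3.10.9) served for the other steps.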

Additional observations from a re-analysis of the deposited data

How the results depend on the processing

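Each level already sets the precipitate against the input of the same array. The 2 rats form 1 group, so there was no comparison of groups in which to pair animals. The mean level of chromosome 20 kept its sign under every alternative run and missed the threshold in each that gave a test; single rats give none. Its difference from the other chromosomes turned from -0.0049 to 0.0023 under normexp and ranged from -0.048 to 0.038 with 1 rat left out. Under normexp, the counts were 0 above and 2 below at 1 Mb, 0 above and 14 below at 200 kb, and 0 limma-called steps up and 0 down. Unadjusted, these counts were 0 and 16, 3 and 50, and 6 and 5. Rich regions numbered 3. The 13 low fragments became 6 with the brightness trend removed, 2 with medians and 6 when a level beyond 0.25 in both rats was asked for. At 200 kb the 9 calls above became 14 in the table of the authors, 27 before dye normalization, 0 with only probes well above background, 0 with the trend removed, 2 with medians and 36 by level. The 7 below became 16 before dye normalization, 0 well above background, 0 with the trend removed, 1 with medians, 13 with a minimum of 5 probes and 41 by level. Steps up numbered 4 before dye normalization. The r between the rats was 0.58 under normexp, 0.91 before dye normalization, 0.74 well above background and 0.77 at 500 kb. The r of probe level and log2 input intensity moved from -0.24 to -0.35 under normexp and -0.34 well above background, and was -0.23 and -0.26 in single rats.

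Of 144 values for 24 named levels (the first 6 Mb, 10 fragments and 13 regions), 91 moved by less than the spread between the rats, 47 by more and 6 changed sign. The 91 include all 24 values without the flag filter, which had removed only 3 spots of the chromosome. They also include 20 from the table of the authors, which differs only in the centring. Under normexp 2 of the 24 moved by less than that spread, 17 by more and 5 changed sign. The first 6 Mb turned to 0.0032 before dye normalization. Under normexp the rich regions starting at 3957, 15563312, 23529034, 32599609 and 35958253 turned to -0.018, -0.015, -0.0051, -0.032 and -0.015. The cause of these changes was not tested. Each rat alone gives no test of fragments, as no residual degree of freedom is left, so these counts were not run, and an r between rats needs both. Rich stretches, the dimmer ones in the input, had the lower share of probes well above background.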

Other observations

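The 69 probes on randomly placed sequence of chromosome 20 entered no comparison. Their mean level was -0.03 in rat 1 and -0.09 in rat 2, with a mean of -0.06 ± 0.042 (SD, n = 2 rats), and 66.7% of them had the same sign in both rats.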
